A study of Mus musculus with 12 samples.

Results

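Hepatocytes next to the central vein of the liver, called pericentral, express a set of genes that depends on Wnt signalling, and 10 of these genes are described here in mice that lost *Cdk1* in hepatocytes. The genes are *Glul*, *Oat*, *Slc1a2*, *Rgn* and *Lect2*, which encode enzymes, a transporter and secreted or cytosolic proteins, *Axin2*, *Lgr5*, *Rnf43* and *Znrf3*, which act in the Wnt pathway itself, and the transcription factor *Tbx3*. They were chosen by symbol from the deposited table, which lists 47069 genes, and each of the 10 symbols is listed there once. Genes with a mean of at least 0.1 FPKM over all libraries were tested, which kept 17386 genes and 10 of the 10. FPKM counts the sequenced fragments of a gene per kilobase of its transcript and relative to all mapped fragments of the library, so that levels can be compared between genes.

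Polyadenylated RNA was sequenced from mouse liver at postnatal day 14 (P14), in 12 libraries that form 4 groups of 3. The groups are isolated hepatocytes and whole liver of wild type (WT) mice, and isolated hepatocytes and whole liver of *Cdk1* Liv-/- mice. *Cdk1* encodes the kinase that drives cells into mitosis, and in *Cdk1* Liv-/- mice its floxed alleles are recombined by Cre under the Albumin promoter, which is active in hepatocytes and, before birth, in hepatoblasts. Endothelial cells, Kupffer cells and stellate cells of the same liver are not targeted. All mice had a standard diet, and the labels name no further allele or agent in either genotype. The labels do not say that each library comes from a separate animal or which hepatocyte and whole liver libraries share one, so the p-values measure the spread between these libraries.

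A liver lobule carries a gradient of Wnt activity that is highest around the central vein. Endothelial cells of the central vein and the sinusoids secrete Wnt ligands and R-spondins, which keep beta-catenin active in the neighbouring hepatocytes and with it genes of glutamine synthesis, bile acid synthesis and drug metabolism. *Axin2*, *Lgr5*, *Rnf43* and *Znrf3* are targets of the same signal and feed back on it, whereas urea cycle and gluconeogenic genes are higher at the portal end of the lobule.

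Marker genes of liver cell types were read in the hepatocyte and whole liver libraries. *Alb*, a hepatocyte product, was the most abundant of the pan-hepatocyte markers at a mean of 52252 FPKM over the 12 libraries, which does not tell the labels apart. Between WT hepatocytes and WT whole liver 0 of 9 pan-hepatocyte genes passed (median log2 difference 0.04, limma). At an unadjusted p under 0.05, 2 were higher and 1 lower in hepatocytes. *Stab1*, the most abundant of 10 endothelial markers, had a mean of 31.4 FPKM. None of the tested endothelial, stellate cell, Kupffer cell, cholangiocyte or erythroid markers was at 0 in any library. The lowest single values of these lists were 0.67, 0.34, 1.76, 0.01 and 0.04 FPKM, and values near 0 rest on few reads. Most markers of other liver cells were thus measured in the isolated hepatocytes too. Between WT hepatocytes and WT whole liver 0 of the 10 endothelial markers passed (median log2 difference -0.0027, limma), with 0 higher and 1 lower at an unadjusted p under 0.05, and 2 were lower without WT hepatocyte replicate 3. In *Cdk1* Liv-/- mice 10 of the 10 were lower in hepatocytes (median -1.85), where 35.9% of all tested genes were lower (median of all genes -0.19). For the other lists the WT values were lower in hepatocytes for each gene, with medians of -0.94 for 8 stellate cell, -0.51 for 8 Kupffer cell, -1.25 for 4 cholangiocyte and -1.71 for 8 erythroid markers. Of these genes 0, 0, 3 and 1 passed, and without WT hepatocyte replicate 3 the counts were 7, 3, 4 and 5, whereas 0 passed without WT hepatocyte replicate 1 or 2. In the WT comparison with all libraries 1.42% of all tested genes were lower in hepatocytes. Fewer cells of a type and less RNA per cell cannot be told apart in bulk libraries such as these.

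A few libraries stood apart from the rest of their group. In *Cdk1* Liv-/- whole liver replicate 2 the FPKM of the 10 genes summed to 454, where the other replicates of that group had 1215 and 1236, and each of the 10 was lowest there. In that library 27.5% of all tested genes were the lowest of their group. WT hepatocyte replicate 3 was the lowest of its group for 9 of the 10 genes, with a sum of 722 FPKM against 1155 and 1044. The 10 endothelial markers summed to 264 FPKM in that library and to 139 and 92.9 FPKM in the other WT hepatocyte libraries, beside 136 to 188 FPKM in WT whole liver. Stellate cell markers had sums of 394 FPKM there against 192 and 117, Kupffer cell markers of 496 against 273 and 145, and erythroid markers of 583 against 148 and 109, with 8 of 8, 8 of 8 and 7 of 8 genes highest in that library. WT whole liver replicate 3 was the lowest of its group for 9 of the 10 genes as well, with a sum of 945 FPKM against 1287 and 1299.7. Of all tested genes 32.1% were lowest in WT hepatocyte replicate 3 and 41.5% in WT whole liver replicate 3. *Cdk1* Liv-/- whole liver replicate 3 had *Xist* at 158 FPKM and Y-linked genes at a sum of 0, where the methods of the study name male mice only, and it was in the middle or at the top of its group for the 10 genes. Calls of the 10 genes that were lost or gained without single libraries are named below. The sum in *Cdk1* Liv-/- hepatocytes was 1228, 1259 and 968 FPKM.

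**Figure D1:**
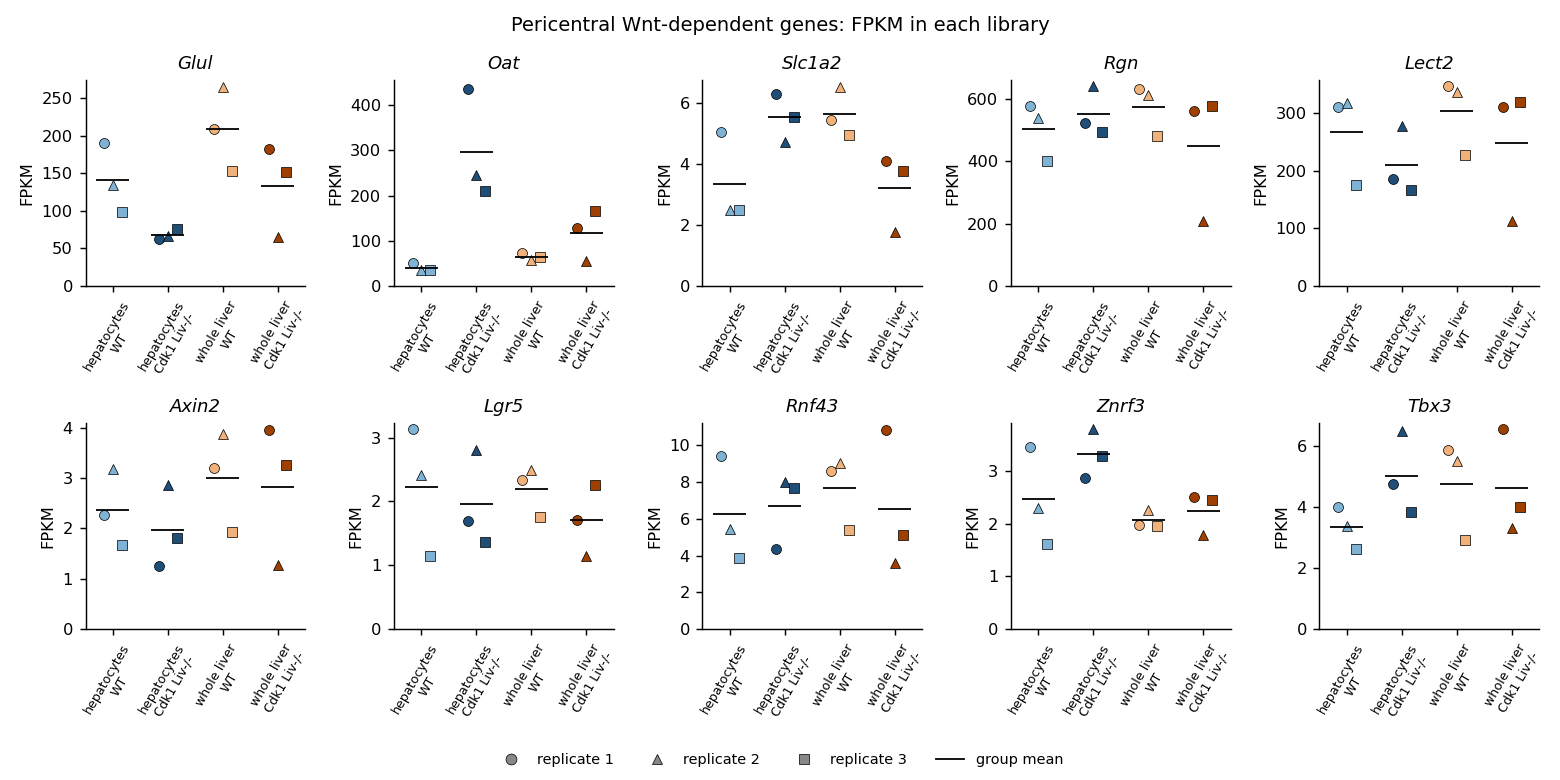
FPKM of the 10 pericentral Wnt-dependent genes in each of the 12 libraries, with a point for each replicate and a line at the mean of each group of 3. *Oat* is above all WT hepatocyte values in the *Cdk1* Liv-/- hepatocytes, *Glul* is below them, and the lowest point of *Cdk1* Liv-/- whole liver is replicate 2 in each panel.

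The 10 genes covered a wide range of levels. *Rgn*, which encodes the calcium-binding protein regucalcin, was highest in WT hepatocytes at 504 ± 92.8 FPKM (SD, n = 3). *Lect2*, a secreted hepatocyte protein, followed at 268 ± 80.9 FPKM, and *Glul*, glutamine synthetase, at 141 ± 46.2 FPKM. *Oat*, ornithine aminotransferase, had 40.6 ± 8.87 FPKM. The levels of *Rnf43*, *Tbx3*, *Slc1a2*, *Znrf3*, *Axin2* and *Lgr5* were between 6.26 and 2.23 FPKM, in that order, and the replicates of neighbours in it overlap. In *Cdk1* Liv-/- hepatocytes the order of the leading genes was different. *Oat*, at 297 ± 122 FPKM, came after *Rgn* and above *Lect2* with 210.5 ± 59.7 FPKM, although replicates of *Oat* and *Lect2* overlap, and *Glul* followed at 67.95 ± 6.87 FPKM. In WT whole liver *Rgn* had 576 ± 81.3 FPKM, *Lect2* 304 ± 66.6 FPKM, *Glul* 208 ± 56.0 FPKM and *Oat* 64.1 ± 7.75 FPKM. In *Cdk1* Liv-/- whole liver the same order ran from 449 ± 209 FPKM for *Rgn* over 248 ± 117 FPKM for *Lect2* and 133 ± 60.7 FPKM for *Glul* to 116 ± 57.0 FPKM for *Oat*, with replicates that overlap at each step. The estimated depth was 34.65 to 49.85 reads for each FPKM on 1 kb of transcript, so the lowest of all values, 1.14 FPKM for *Lgr5*, still rests on reads.

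The comparison of isolated hepatocytes asks which pericentral genes differ when *Cdk1* is deleted in these cells. *Oat* was higher and *Glul* was lower in *Cdk1* Liv-/- hepatocytes, each in 3 of 3 libraries, and the other 8 genes did not pass the test. The test was limma, two-sided, on log2(FPKM + 0.5) over all 17386 genes, and the threshold was that of the study, 0.1 for the adjusted p. The 10 genes thus gave 1 higher and 1 lower call, where 12.1% of all tested genes were called higher and 6.61% lower, so calls were made in both directions among the 10 as among all genes. With size factors, described below, 1709 genes were higher and 1414 lower. The genotypes did not overlap for 2 of the 10 genes, *Oat* and *Glul*, against 34.0% of all tested genes. The median log2 change of the 10 genes was 0.13, beside 0.049 for all genes. *Cdk1* itself fell by 1.40 on this scale in hepatocytes and by 0.85 in whole liver (limma adjusted p = 0.0148 and 0.00353). These falls do not measure the extent of the deletion, since FPKM covers the whole transcript and all cells of a library. The study names exon 3 as the part removed and reports hardly any *Cdk1* mRNA by quantitative PCR in *Cdk1* Liv-/- hepatocytes of this age.

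*Oat* encodes the mitochondrial enzyme that links ornithine to glutamate and proline (ENSMUSG00000030934, chr7:132557478-132576398 of GRCm38, minus strand). WT hepatocytes had 50.8, 34.8 and 36.15 FPKM in replicates 1 to 3. *Cdk1* Liv-/- hepatocytes had 436, 246 and 209.75 FPKM. The lowest *Cdk1* Liv-/- library was thus far above the highest WT library, and replicate 1 was the highest of its group in both genotypes. *Oat* rose by 2.80 on the log2 scale (95% interval 2.09 to 3.52, limma adjusted p = 0.00457), a 6.99-fold change on FPKM + 0.5, and passed the threshold under each of the 16 alternatives, with adjusted p-values from 0.000515 to 0.0248. The annotation places *Oat* within the span of *Fgfr2* on the same strand, and *Fgfr2* was at 11.32 to 24.86 FPKM over the 12 libraries.

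*Glul* makes glutamine from glutamate and ammonia and marks the hepatocytes closest to the central vein (ENSMUSG00000026473, chr1:153899944-153909723, plus strand). Its values were 189.8, 134 and 98.0 FPKM in WT hepatocytes. The *Cdk1* Liv-/- hepatocytes had 61.95, 66.5 and 75.4 FPKM. All 3 *Cdk1* Liv-/- libraries were below all 3 WT libraries, the WT values were spread widely and the *Cdk1* Liv-/- values were close together. *Glul* fell by 0.996 on the log2 scale (95% interval -1.57 to -0.42, limma adjusted p = 0.0488), which is 1.99-fold lower and just short of a log2 change of 1. With each library left out the change was negative, between -0.75 without WT replicate 1 and -1.23 without WT replicate 3. The call was lost without WT replicate 2 (adjusted p = 0.108) and without *Cdk1* Liv-/- replicate 1 (0.130), replicate 2 (0.123) or replicate 3 (0.101). It was also lost without the filter on low values (0.126) and with the replicate number as a block (0.125), in a range of 0.0270 to 0.130 over the 16 alternatives.

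*Slc1a2* encodes GLT-1, a glutamate transporter that pericentral hepatocytes use to take up glutamate (ENSMUSG00000005089, chr2:102658659-102790784, plus strand). In hepatocytes it was at 5.05, 2.48 and 2.47 FPKM in WT and at 6.29, 4.72 and 5.53 FPKM in *Cdk1* Liv-/-. WT replicate 1 lies within the *Cdk1* Liv-/- values and the other WT replicates lie below them. The log2 change was 0.71 (95% interval 0.04 to 1.38) and did not pass (limma adjusted p = 0.157). Without WT replicate 1 it was 1.01 and passed (adjusted p = 0.0476, in a range of 0.0476 to 0.326 over the alternatives), which brings the number of the 10 genes called to 3. That number was 1 without WT replicate 2 or any of the 3 *Cdk1* Liv-/- replicates, where *Glul* was lost.

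*Rgn* and *Lect2* did not pass in hepatocytes. *Rgn* (ENSMUSG00000023070, chrX:20549787-20562089, plus strand) was at 576, 538 and 399 FPKM in WT and at 523, 640.0 and 493 FPKM in *Cdk1* Liv-/- hepatocytes. *Lect2* (ENSMUSG00000021539, chr13:56542464-56548502, minus strand) was at 312, 318 and 175 FPKM in WT and at 186, 279 and 167 FPKM in *Cdk1* Liv-/- hepatocytes. The genotypes overlapped for both genes. Their log2 changes were 0.14 for *Rgn* (95% interval -0.28 to 0.56, limma adjusted p = 0.640) and -0.33 for *Lect2* (-1.05 to 0.38, adjusted p = 0.493).

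In whole liver the comparison asks the same of the tissue with all its cell types. *Slc1a2* was lower in the *Cdk1* Liv-/- tissue, and the other 9 genes did not pass. The 10 genes gave 0 higher and 1 lower call by limma, where 38.0% of all tested genes were called higher and 7.53% lower. At an unadjusted p under 0.05, and in a two-sample test with q-values, the count was also 0 higher and 1 lower. The study names a test of that kind, but the version run here called 8753 genes higher and 2073 lower in whole liver, far more than the study lists, and does not repeat its analysis. With size factors the counts over all genes were 3107 higher and 2844 lower, so how the 10 compare with all genes depends on the scaling. Genotypes did not overlap for 1 of the 10 genes, against 52.1% of all tested genes. Values of all genes were shifted upward in this comparison, with a median log2 change of 0.18 that was 0.013 after division by median-ratio size factors, which bring the typical gene to the same level in each library. The median of the 10 genes was -0.32, or -0.50 with size factors, and 1 of the 10, *Oat*, was above the median of all genes. Other lists moved too. Of 9 pan-hepatocyte genes 4 were lower and 0 higher (median -0.35, or -0.57 with size factors). Of 8 stellate cell markers 5 were higher and 0 lower (median 0.74, or 0.52 with size factors). The part of the cell composition in the values of the 10 genes was not tested.

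*Slc1a2* in whole liver had 5.43, 6.51 and 4.94 FPKM in WT and 4.09, 1.76 and 3.76 FPKM in *Cdk1* Liv-/-. All 3 *Cdk1* Liv-/- libraries lay below the WT libraries, with replicate 2 the lowest. *Slc1a2* fell by 0.79 on the log2 scale (95% interval -1.49 to -0.08, limma adjusted p = 0.0824), which is 1.72-fold lower, and by 0.97 with size factors (adjusted p = 0.0597). The call was lost without WT replicate 1 (adjusted p = 0.175), WT replicate 2 (0.203), WT replicate 3 (0.133) or *Cdk1* Liv-/- replicate 3 (0.104). The replicate number as a block gave 0.149 and no filter on low values gave 0.168, within a range of 0.0563 to 0.203 over the alternatives. The number of the 10 genes called was then 0. Without *Cdk1* Liv-/- replicate 2 the change was -0.46 and passed (0.0563).

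*Glul* and *Oat*, which changed in hepatocytes, did not pass in whole liver. *Glul* was at 208, 264 and 152 FPKM in WT and at 183, 65.6 and 152 FPKM in *Cdk1* Liv-/- whole liver. Its log2 change of -0.73 (95% interval -1.76 to 0.30) did not pass (limma adjusted p = 0.223), and it was -0.28 without *Cdk1* Liv-/- replicate 2 (0.429). *Oat* was at 71.7, 56.2 and 64.3 FPKM in WT and at 129, 54.1 and 166 FPKM in *Cdk1* Liv-/- whole liver. Replicates 1 and 3 of the *Cdk1* Liv-/- group were above all WT libraries for *Oat* and replicate 2 was below them. The log2 change of *Oat* was 0.72 (95% interval -0.30 to 1.73, adjusted p = 0.223), and it was 1.19 and passed without *Cdk1* Liv-/- replicate 2 (adjusted p = 0.00964, in a range of 0.00964 to 0.485), which makes 2 calls among the 10 genes. Without *Cdk1* Liv-/- replicate 3, the library with high *Xist* and the highest *Oat* value, the change was 0.39 and did not pass (limma adjusted p = 0.485).

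*Rgn* and *Lect2* showed the same low library in whole liver. *Rgn* had 632, 612 and 482 FPKM in WT and 562, 208 and 577 FPKM in *Cdk1* Liv-/- whole liver. *Lect2* had 347, 337 and 227 FPKM in WT and 312, 113 and 319.9 FPKM in *Cdk1* Liv-/- whole liver. Apart from replicate 2, the *Cdk1* Liv-/- values of both genes lie among the WT values. The log2 changes were -0.49 for *Rgn* and -0.41 for *Lect2*, with limma adjusted p-values of 0.392 and 0.497. Without *Cdk1* Liv-/- replicate 2 they were -0.0050 and 0.08 and did not pass.

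Whether the genotype acts differently on a gene in the compartments was tested as the interaction, the change in hepatocytes minus the change in whole liver, in 1 fit of all 12 libraries. The difference passed for *Oat* and *Slc1a2*, and for both the change was more positive in hepatocytes. These are 2 higher and 0 lower calls of 10, where 2.35% of all tested genes were higher and 7.49% lower, and with size factors 547 genes were higher and 492 lower. The counts over all genes moved widely without single libraries, from 35 higher and 43 lower without WT whole liver replicate 1 to 407 higher and 2232 lower without WT hepatocyte replicate 2, so the 2 calls are not read against them. The lower count of 0 by limma was also 0 at an unadjusted p under 0.05, and no other tool was run for the interaction. The median difference of the 10 genes was 0.39, beside -0.11 for all genes, and with size factors these were 0.51 and 0.011. Other lists moved in the same test. The endothelial markers had 7 lower calls of 10 (median -1.66), and the stellate cell and Kupffer cell markers 3 of 8 each (medians -1.41 and -1.43), which with size factors were 4, 0 and 1 and without WT whole liver replicate 1 were 0 in each list. Periportal hepatocyte genes had 7 higher and 1 lower of 17 (median 0.69), and 18 other pericentral genes 4 higher and 0 lower (median 0.55, with 16 above 0). The part of the cell composition in the differences of *Oat* and *Slc1a2* was not tested.

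For *Oat* the difference was 2.09 on the log2 scale (95% interval 0.91 to 3.27, limma adjusted p = 0.0656), from a change of 2.80 in hepatocytes and 0.72 in whole liver. For *Slc1a2* it was 1.49 (95% interval 0.57 to 2.41, adjusted p = 0.0784), from 0.71 and -0.79. The change of *Slc1a2* in hepatocytes did not pass by itself. Size factors gave differences of 2.23 for *Oat* (adjusted p = 0.0678) and 1.62 for *Slc1a2* (0.0755). Both calls were lost without replicate 3 of the WT hepatocytes, replicate 1 of the *Cdk1* Liv-/- hepatocytes or any of the 3 WT whole liver replicates, where the adjusted p of *Oat* was 0.111, 0.103, 0.163, 0.113 and 0.117 and that of *Slc1a2* 0.138, 0.123, 0.166, 0.154 and 0.119. Neither call was kept without the filter on low values. The call of *Slc1a2* was also lost without *Cdk1* Liv-/- hepatocyte replicate 3 (0.123) or *Cdk1* Liv-/- whole liver replicate 2 (0.134) or 3 (0.103). Over the alternatives the adjusted p ranged from 0.0597 to 0.163 for *Oat* and from 0.0712 to 0.166 for *Slc1a2*. For *Glul* the difference was -0.27 (95% interval -1.38 to 0.85, adjusted p = 0.800), so the data do not show that its change differs between the compartments. The other 7 genes had differences from -0.10 for *Axin2* to 0.63 for *Rgn*, with adjusted p-values from 0.460 to 0.957.

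**Figure D2:**
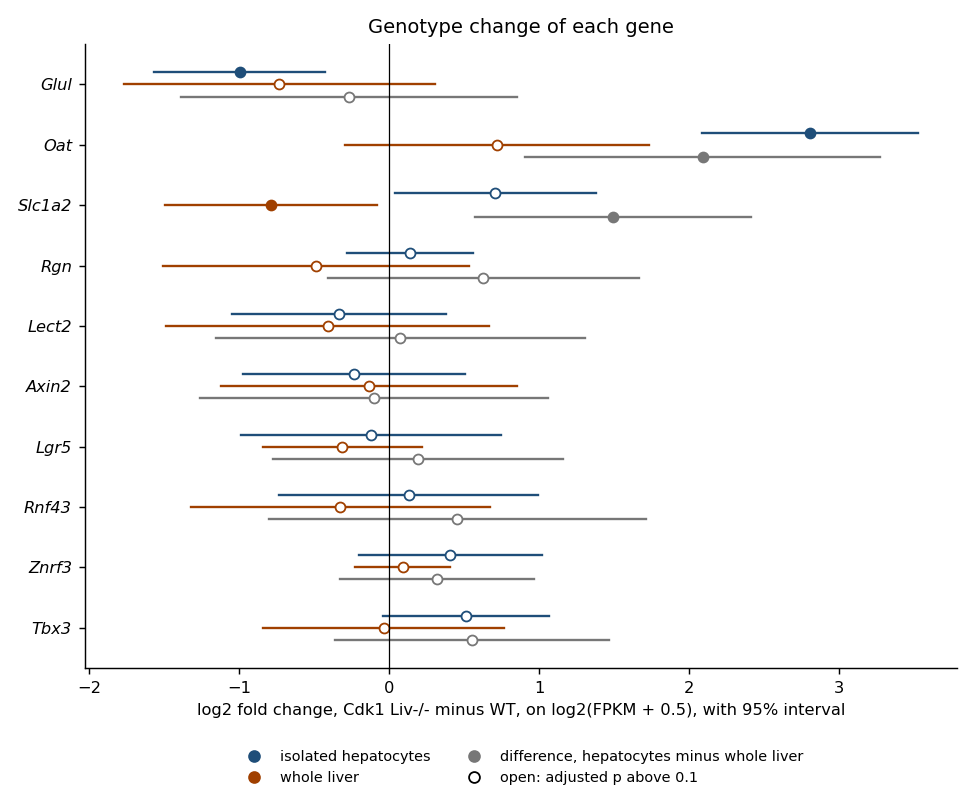
Log2 change of each of the 10 genes from WT to *Cdk1* Liv-/- in isolated hepatocytes and in whole liver, and the difference between these changes, with 95% intervals from limma. Filled points have an adjusted p of at most 0.1, as *Oat* and *Glul* in hepatocytes, *Slc1a2* in whole liver, and *Oat* and *Slc1a2* in the difference.

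Promoter sequence was looked at for those of the 10 genes that had an entry. RefSeq windows of GRCm38.p6 matched 6 of the 10 genes, *Glul*, *Oat*, *Slc1a2*, *Lect2*, *Axin2* and *Rnf43*, with 7 windows, and *Rgn*, *Lgr5*, *Znrf3* and *Tbx3* are not in that table. The letters searched were CTTTGA, the core shared by binding sites of the TCF and LEF factors that act with beta-catenin, and their reverse complement TCAAAG, in the 250 bases upstream of each start. They were found in 4544 of 32851 windows of that length (13.8%), and in 2 of the 7 windows of the pericentral genes, those of *Slc1a2* and *Lect2*. The windows of *Glul* (chr1:153899679-153899928, plus strand) and *Oat* (chr7:132576399-132576648, minus strand) are shown since these genes changed in opposite directions in hepatocytes, and neither holds these letters. All 250 bases of the *Glul* window also lie in annotated exons of other genes, Teddm2 on the opposite strand and Mir8114, and the *Oat* window lies within the span of *Fgfr2*. For *Slc1a2* the window lies at a start inside the gene, and the 168 bases printed (chr2:102706188-102706355, plus strand) stop before a short annotated exon. The window holds the letters once more, as CTTTGA, 77 to 72 bases before the start in the part that is not printed. The window of *Lect2* (chr13:56548539-56548788, minus strand) holds the letters close to its 3′ end. Sequences run 5′ to 3′ and capitals mark the match, which describes the letters and not a bound site.
Glul: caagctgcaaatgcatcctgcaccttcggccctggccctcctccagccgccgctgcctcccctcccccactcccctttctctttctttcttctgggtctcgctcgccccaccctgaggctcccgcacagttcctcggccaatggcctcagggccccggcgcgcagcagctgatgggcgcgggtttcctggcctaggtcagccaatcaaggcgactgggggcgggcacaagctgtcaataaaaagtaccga
Oat: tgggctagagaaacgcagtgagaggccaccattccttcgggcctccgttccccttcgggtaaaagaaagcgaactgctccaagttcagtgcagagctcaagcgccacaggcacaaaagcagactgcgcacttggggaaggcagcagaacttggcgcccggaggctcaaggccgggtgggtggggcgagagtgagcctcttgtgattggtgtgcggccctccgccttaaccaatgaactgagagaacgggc
Slc1a2: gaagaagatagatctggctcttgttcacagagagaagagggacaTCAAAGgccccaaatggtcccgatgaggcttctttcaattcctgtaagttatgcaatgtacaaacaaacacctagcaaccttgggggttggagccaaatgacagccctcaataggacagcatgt
Lect2: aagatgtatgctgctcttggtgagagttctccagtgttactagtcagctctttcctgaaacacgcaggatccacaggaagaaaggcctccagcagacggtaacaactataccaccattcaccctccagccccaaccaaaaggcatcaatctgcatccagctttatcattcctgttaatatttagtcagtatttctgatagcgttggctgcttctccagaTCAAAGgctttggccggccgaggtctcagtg

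The 4 genes of Wnt feedback and receptor turnover gave 0 calls by limma between the genotypes in either compartment. At an unadjusted p under 0.05 the count was 0 in hepatocytes and 0 in whole liver, and the two-sample test with q-values gave 0 as well. Of all tested genes 12.1% were higher and 6.61% lower in hepatocytes, and 38.0% were higher and 7.53% lower in whole liver. The median log2 change of the 4 was 0.0039 in hepatocytes and -0.22 in whole liver (-0.064 and -0.40 with size factors). The genotypes overlapped for all 4 genes in both compartments, where 34.0% and 52.1% of all tested genes did not overlap.

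*Axin2*, a scaffold of the complex that degrades beta-catenin and a target of Wnt signalling in many tissues, is at chr11:108920349-108950783 on the plus strand (ENSMUSG00000000142). It was at 2.27, 3.18 and 1.67 FPKM in WT and at 1.26, 2.86 and 1.80 FPKM in *Cdk1* Liv-/- hepatocytes. In whole liver it was at 3.20, 3.87 and 1.93 FPKM in WT and at 3.96, 1.27 and 3.25 FPKM in *Cdk1* Liv-/-. Replicate 2 was the highest of both hepatocyte groups and the lowest of *Cdk1* Liv-/- whole liver, and the WT and *Cdk1* Liv-/- values are interleaved. The log2 change was -0.23 in hepatocytes (95% interval -0.97 to 0.50, limma adjusted p = 0.655) and -0.14 in whole liver (-1.12 to 0.85, adjusted p = 0.815), or 0.27 there without *Cdk1* Liv-/- replicate 2 (0.501). Both intervals reach below -0.79, the change that passed for *Slc1a2*, so a fall of that size in *Axin2* could not be told from no change at this spread.

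*Lgr5*, a receptor for R-spondins (ENSMUSG00000020140, chr10:115450311-115587780, minus strand), had 3.13, 2.41 and 1.15 FPKM in WT and 1.70, 2.81 and 1.36 FPKM in *Cdk1* Liv-/- hepatocytes. In whole liver it had 2.33, 2.49 and 1.76 FPKM in WT and 1.71, 1.14 and 2.26 FPKM in *Cdk1* Liv-/-. Replicate 3 was the lowest of both WT groups and replicate 2 of *Cdk1* Liv-/- whole liver, the libraries that stood apart, and the genotypes overlap. Log2 changes were -0.12 in hepatocytes and -0.31 in whole liver, with limma adjusted p-values of 0.856 and 0.302, and the latter was -0.11 without *Cdk1* Liv-/- replicate 2.

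*Rnf43* and *Znrf3* encode membrane ubiquitin ligases that remove Wnt receptors from the cell surface, an action that R-spondins and LGR receptors block. *Rnf43* (ENSMUSG00000034177, chr11:87662722-87735539, plus strand) had 6.26 ± 2.86 FPKM in the WT hepatocytes and 6.69 ± 2.01 FPKM in those of *Cdk1* Liv-/- mice (SD, n = 3 each). In whole liver the levels were 7.69 ± 1.98 FPKM and 6.53 ± 3.83 FPKM, and the latter spread is the widest of the 4 groups. The log2 change was 0.13 in hepatocytes (limma adjusted p = 0.846) and -0.33 in whole liver (adjusted p = 0.561). Without *Cdk1* Liv-/- whole liver replicate 1, which had 10.86 FPKM, the whole liver change was -0.74 and passed (adjusted p = 0.0983, in a range of 0.0983 to 1.00), making 2 calls among the 10 genes, and without replicate 2 it was -0.0021. *Znrf3* (ENSMUSG00000041961, chr11:5276324-5444847, minus strand) was at 2.46 ± 0.930 and 3.32 ± 0.466 FPKM in WT and *Cdk1* Liv-/- hepatocytes, and at 2.06 ± 0.170 and 2.24 ± 0.394 FPKM in whole liver. Its log2 change was 0.41 in hepatocytes (adjusted p = 0.338). In whole liver it was 0.09 (adjusted p = 0.619) and -0.09 with size factors.

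*Tbx3* encodes a T-box transcription factor of pericentral hepatocytes and hepatoblasts (ENSMUSG00000018604, chr5:119670669-119684724, plus strand). It was at 4.01, 3.37 and 2.64 FPKM in WT and at 4.75, 6.51 and 3.83 FPKM in *Cdk1* Liv-/- hepatocytes. The lowest *Cdk1* Liv-/- value is just below the highest WT value. The log2 change was 0.51 (95% interval -0.04 to 1.07) and did not pass (limma adjusted p = 0.200). In whole liver *Tbx3* had 4.77 ± 1.61 FPKM (SD, n = 3) in the WT libraries and 4.63 ± 1.71 FPKM in the *Cdk1* Liv-/- libraries, a log2 change of -0.04 (adjusted p = 0.942), or 0.15 without *Cdk1* Liv-/- replicate 2. The difference between the compartments was 0.55 (adjusted p = 0.461). An antisense transcript at this locus, *Tbx3os1*, was at 1.80 to 17.48 FPKM over the libraries.

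The isolated cells were also compared with the tissue of the same genotype. In WT the 10 genes gave 0 higher and 0 lower calls by limma, where 0.104% of all tested genes were higher and 1.42% lower in hepatocytes. At an unadjusted p under 0.05 there were 0 higher and 2 lower, and the two-sample test with q-values called 0. Over all genes there were 413 higher and 2656 lower calls without WT hepatocyte replicate 3 and 1 call in all without WT hepatocyte replicate 1, so the shares rest on single libraries. The median log2 difference of the 10 genes was -0.30, beside -0.097 for all genes. *Glul* was at 141 ± 46.2 FPKM in WT hepatocytes and 208 ± 56.0 FPKM in WT whole liver, a log2 difference of -0.58 (adjusted p = 0.333). *Oat*, with -0.67 (adjusted p = 0.152), and *Slc1a2*, with -0.73 (adjusted p = 0.236), were also lower in the isolated cells by values that did not pass.

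In *Cdk1* Liv-/- mice *Oat*, *Slc1a2* and *Znrf3* were higher in isolated hepatocytes than in whole liver. These are 3 higher and 0 lower calls of 10, where 8.86% of all tested genes were called higher and 35.9% lower, and with size factors 3502 genes were higher and 3712 lower. In the same comparison 11 of 17 periportal hepatocyte genes were higher and 1 lower (median 0.78), while 8 of 8 stellate cell, 8 of 8 Kupffer cell and 7 of 8 erythroid markers were lower, as were the endothelial markers. The part of the other cells of the tissue in the 3 calls was not tested. The lower count of 0 by limma was 0 at an unadjusted p under 0.05 too, and 1, *Glul*, by the two-sample test with q-values. The median log2 difference was 0.14 for the 10 genes and -0.19 for all genes, and with size factors they were 0.37 and 0.016. *Oat* was higher by 1.42 (95% interval 0.29 to 2.56, limma adjusted p = 0.0592), *Slc1a2* by 0.76 (0.06 to 1.45, adjusted p = 0.0862) and *Znrf3* by 0.48 (0.09 to 0.87, adjusted p = 0.0609). *Glul* was at 67.95 ± 6.87 FPKM in the hepatocytes and 133 ± 60.7 FPKM in the tissue, a log2 difference of -0.85 that did not pass (adjusted p = 0.125).

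These calls rest on few libraries. Without *Cdk1* Liv-/- whole liver replicate 2, *Glul* was lower in hepatocytes by a log2 difference of -1.29 (adjusted p = 0.00479, in a range of 0.00479 to 0.298), while *Oat*, *Slc1a2* and *Znrf3* did not pass (0.108, 0.101 and 0.150) at log2 differences of 0.95, 0.44 and 0.36. Without *Cdk1* Liv-/- hepatocyte replicate 2, 0 of the 10 genes passed, with an adjusted p of 0.105 for *Oat*, 0.117 for *Slc1a2* and 0.142 for *Znrf3*. The number called was 1 without *Cdk1* Liv-/- hepatocyte replicate 1 or 3 or without *Cdk1* Liv-/- whole liver replicate 3. The calls of *Oat*, *Slc1a2* and *Znrf3* were also lost without the filter on low values (limma adjusted p = 0.136, 0.172 and 0.102). That of *Znrf3* was lost with the replicate number as a block (0.144). Over the alternatives the adjusted p ranged from 0.0120 to 0.150 for *Oat*, from 0.0482 to 0.197 for *Slc1a2* and from 0.0208 to 0.150 for *Znrf3*.

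The genes most like *Glul* and *Axin2* over the 12 libraries were ranked among 12282 genes with a mean of at least 1 FPKM. The measure was the root mean square difference of log2(FPKM + 0.5) values, each centred on the mean of its gene. For *Glul* the nearest were *Wnt2* (0.288), *Avpr1a* (0.297) and *Cyp26b1* (0.304). *Wnt2* was at 0.51, 0.42 and 0.22 FPKM in *Cdk1* Liv-/- hepatocytes, and *Cyp26b1* at 0.68, 0.26 and 0.52 FPKM. Values this near the added 0.5 make a fall smaller on this scale, so the rank of both genes depends on it. For *Axin2* they were *Gsta3* (0.208), *Nxpe2* (0.227) and *Lect2* (0.227), the last another of the 10 genes.

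Other pericentral hepatocyte genes, 18 in number, were read from the same tests. In hepatocytes 8 were higher and 4 lower, with a median log2 change of 0.68, and in whole liver 3 were higher and 4 lower, with a median of -0.19 (-0.41 with size factors). The shares over all genes were 12.1% higher and 6.61% lower in hepatocytes and 38.0% and 7.53% in whole liver. *Aldh1a1*, a retinaldehyde dehydrogenase, rose in both compartments, by 3.26 in hepatocytes (limma adjusted p = 0.00127) and 2.55 in whole liver (0.00143). *Gstm3* rose by 2.83 and 2.41 (adjusted p = 0.00248 and 0.0206), with the reservation that its reads may be shared with near-identical Gstm genes. *Aldh1a1* and *Gstm3* are among the 8 genes higher in hepatocytes, and hepatocyte values of the 4 lower genes are not given here. *Cyp1a2*, a drug-metabolising P450, was at 169, 164 and 95.5 FPKM in WT and at 66.9, 8.60 and 61.0 FPKM in *Cdk1* Liv-/- whole liver. It fell by 2.05 there (adjusted p = 0.0989), and the call was lost without WT replicate 1 (0.230), 2 (0.215) or 3 (0.145) or *Cdk1* Liv-/- replicate 3 (0.106), in a range of 0.0387 to 0.230. *Cyp2e1*, the most abundant of the list, did not pass in either compartment, with log2 changes of -0.49 and -1.04. All 18 genes in *Cdk1* Liv-/- whole liver replicate 2 were the lowest of their group, as were the 10 described above. The higher count in hepatocytes was 4 without WT replicate 3 and 5 without WT replicate 1, WT replicate 2 or *Cdk1* Liv-/- replicate 3, and the lower count was 1 without WT replicate 1, WT replicate 2 or *Cdk1* Liv-/- replicate 3. In whole liver 7 were higher without *Cdk1* Liv-/- replicate 2. The lower count there was 0 without WT replicate 2 or 3, 1 without *Cdk1* Liv-/- replicate 3, and 2 without WT replicate 1 or *Cdk1* Liv-/- replicate 2.

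Of 17 periportal genes, 11 were the highest and 0 the lowest of their group in *Cdk1* Liv-/- whole liver replicate 2, where 45.5% of all tested genes were the highest. They summed to 3931 FPKM in that library, beside 3113 and 3741 FPKM in the others of the group and 4178 to 5291 FPKM in WT whole liver. Between the genotypes 3 were higher and 3 lower in hepatocytes (median 0.011), and 4 were higher and 8 lower in whole liver (median -0.55, or -0.77 with size factors), beside 12.1% higher and 6.61% lower of all genes in hepatocytes and 38.0% and 7.53% in whole liver. The hepatocyte lower count was 1 without WT replicate 1 or 3. *Cyp2f2*, a periportal P450, fell by 1.84 in whole liver (limma adjusted p = 0.00199) and did not pass in hepatocytes (0.02, adjusted p = 0.979). *Pigr*, the receptor that carries IgA into bile, rose by 4.18 in hepatocytes (0.00136) and by 2.58 in whole liver (0.00069).

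**Figure D3:**
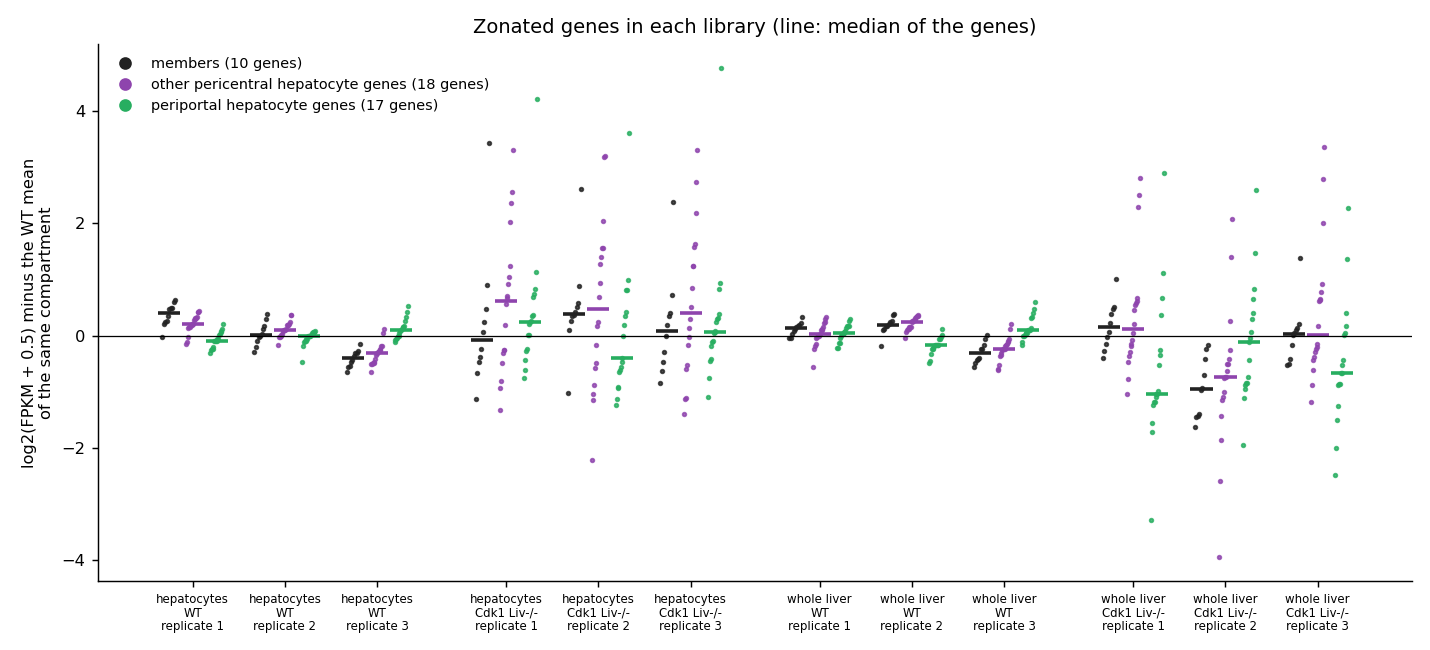
Log2(FPKM + 0.5) of the 10 genes, of 18 other pericentral and of 17 periportal genes in each library, minus the WT mean of the same compartment, with a point for each gene and a line at the median. The median of the 10 genes is -0.96 in *Cdk1* Liv-/- whole liver replicate 2 and -0.40 in WT hepatocyte replicate 3.

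Ligands of the pathway were low in all 12 libraries. Of 23 Wnt and R-spondin genes, 10 were high enough to be tested, and 1 was higher and 2 lower in *Cdk1* Liv-/- hepatocytes (median log2 change 0.00073). Among all tested genes 12.1% were higher and 6.61% lower there. *Wnt2*, a ligand of sinusoidal and central vein endothelium, fell from 1.84, 1.28 and 1.46 FPKM to 0.51, 0.42 and 0.22 FPKM, 2.30-fold on FPKM + 0.5 (limma adjusted p = 0.0142), and did not pass in whole liver (-0.33, adjusted p = 0.573). *Rspo3*, the R-spondin of central vein endothelium, fell by 1.09 (adjusted p = 0.0964), a call lost without any hepatocyte library but WT replicate 2, with adjusted p-values of up to 0.235 and a lowest of 0.0171 over the alternatives. In whole liver *Rspo3* had a log2 change of 0.29 that did not pass (0.205), and it was higher without *Cdk1* Liv-/- replicate 2 (0.45, adjusted p = 0.0325). *Wnt5b* rose by 1.64 in hepatocytes (adjusted p = 0.00360) and by 0.70 in whole liver (0.0209). *Wnt9b* was at most at 0.31 FPKM in any library, with log2 changes of 0.01 and -0.04 that did not pass. In whole liver 5 ligands were higher and 0 lower by limma (median 0.32, or 0.17 with size factors), beside 38.0% higher of all tested genes, with 0 lower at an unadjusted p under 0.05 and in the two-sample test. The 10 endothelial markers were lower in the same hepatocyte libraries, where 6.61% of all tested genes passed as lower. Of these markers 8 passed as lower and 0 as higher in *Cdk1* Liv-/- hepatocytes (median -1.56), with 0 higher at an unadjusted p under 0.05 and in the two-sample test, and *Lyve1* fell by 2.44 (adjusted p = 0.0284). Their sum was 139, 92.9 and 264 FPKM in WT and 65.2, 41.6 and 49.3 FPKM in *Cdk1* Liv-/- hepatocytes. The lower count was 4 without WT replicate 1 or *Cdk1* Liv-/- replicate 2 or 3, and 5 without *Cdk1* Liv-/- replicate 1. In whole liver the sum was 136, 157 and 188 FPKM in WT and 167, 217 and 170 FPKM in *Cdk1* Liv-/-, and 2 of the 10 were higher, with 0 under size factors or without WT replicate 1 and 1 without WT replicate 2 or 3 or *Cdk1* Liv-/- replicate 1 or 3. *Lyve1* was lower there without *Cdk1* Liv-/- replicate 2 (adjusted p = 0.0506). The part of these markers in the levels of *Wnt2*, *Rspo3*, *Glul* and *Oat* was not tested.

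**Figure D4:**
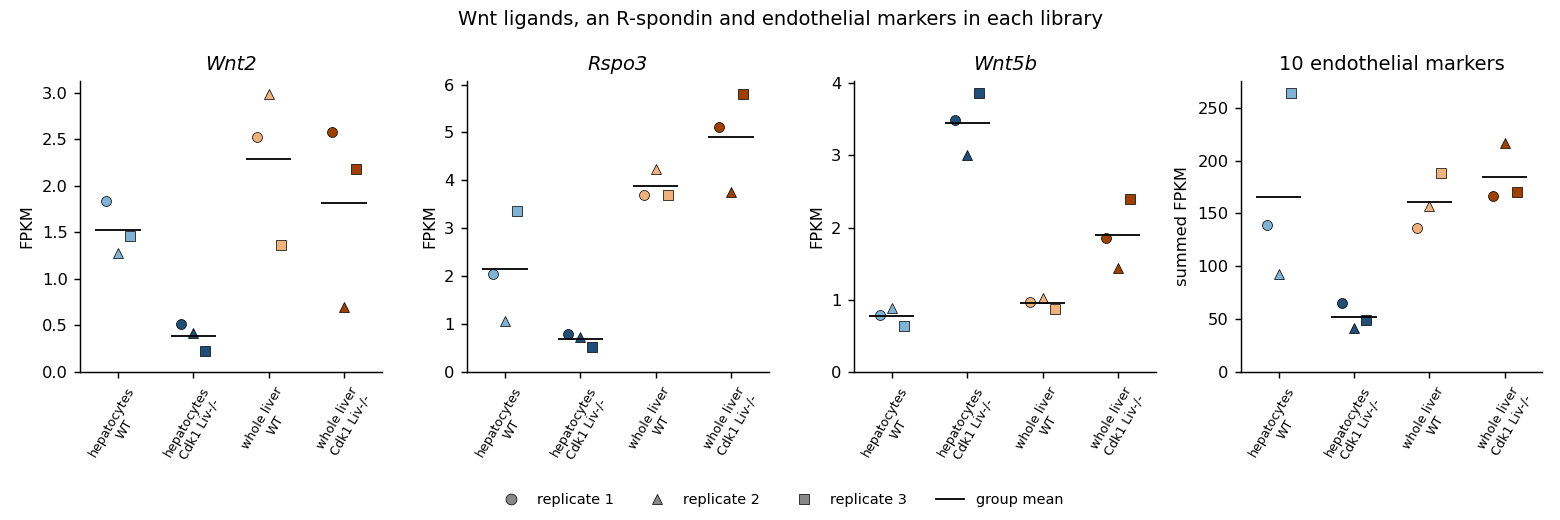
FPKM of *Wnt2*, *Rspo3* and *Wnt5b* and the summed FPKM of 10 endothelial markers in each of the 12 libraries, with a line at the mean of each group. *Wnt2* and the endothelial sum are lower in all 3 *Cdk1* Liv-/- hepatocyte libraries than in the WT hepatocyte libraries.

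Receptors and signal transducers were read in the same way. The shares over all tested genes were 12.1% higher and 6.61% lower in hepatocytes, and 38.0% higher and 7.53% lower in whole liver. Of 11 tested receptor genes 1 was higher and 3 were lower in hepatocytes (median 0.012), and *Fzd8*, a Wnt receptor, fell by 1.32 (limma adjusted p = 0.0155). The higher call was lost without any hepatocyte library but *Cdk1* Liv-/- replicate 1, and 1 lower call, that of *Fzd8*, was left without any but *Cdk1* Liv-/- replicate 2. In whole liver 1 receptor was higher and 2 were lower (median 0.098, or -0.11 with size factors), and 2 were higher without *Cdk1* Liv-/- replicate 3. *Fzd8* fell by 1.24 there (adjusted p = 0.00955), and *Lgr4*, a further receptor for R-spondins, by 0.47 (0.00542), with a difference of 0.74 between its changes that passed (0.0321). Of 16 transducers, 0 were higher and 1 lower in hepatocytes by limma (median 0.11), with 0 higher at an unadjusted p under 0.05 and in the two-sample test. In whole liver 7 were higher and 1, *Pygo1*, lower (median 0.22), where 38.0% of all tested genes were higher, and with size factors 1 was higher (median 0.020). The higher count there was 4 without WT replicate 1, and the call of *Pygo1* was lost without WT replicate 1 or 2 or *Cdk1* Liv-/- replicate 2 or 3 (adjusted p = 0.131, 0.132, 0.112 and 0.111, in a range of 0.0162 to 0.165).

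Inhibitors and further targets of the pathway complete the lists. Of 7 tested inhibitors 1 was higher and 1 lower in hepatocytes (median -0.17) and 3 were higher and 1 lower in whole liver (median 0.34, or 0.25 with size factors), where the shares of all genes were 12.1% and 6.61% in hepatocytes and 38.0% and 7.53% in whole liver. *Wif1*, a secreted protein that binds Wnt ligands, fell by 1.36 in hepatocytes (limma adjusted p = 0.0224, 2 lower calls without WT replicate 2) and by 1.37 in whole liver (0.0130). With size factors the inhibitor *Dkk3* was lower in hepatocytes too (-0.47, limma adjusted p = 0.0787). Of 12 other Wnt target genes 2 were higher and 1 lower in hepatocytes (median -0.14), and 5 were higher and 0 lower in whole liver (median 0.18, or 0.063 with size factors, where 2 were higher), beside 38.0% higher of all genes. In whole liver 0 of the 12 were lower at an unadjusted p under 0.05 and 1 in the two-sample test. *Sox9*, a transcription factor of bile duct cells, rose by 1.38 in hepatocytes (adjusted p = 0.00694) and by 1.44 in whole liver (0.00222). It was the single higher call in hepatocytes without any 1 library, while the lower call, *Nkd1*, was lost without any library but WT replicate 2. Without WT replicate 3 *Notum* and *Tnfrsf19* were lower instead (adjusted p = 0.0924 and 0.0815). In whole liver the higher count was 2 without WT replicate 1 or 3 and 3 without *Cdk1* Liv-/- replicate 1 or 3, and 1 was lower without WT replicate 2. Of the secretion factors *Wls* and *Porcn*, *Wls* rose by 0.62 in whole liver (adjusted p = 0.00642) and neither passed in hepatocytes, where 1 was lower without WT replicate 2. *Axin1*, the paralogue of *Axin2*, had log2 changes of 0.14 and 0.21 that did not pass, and the latter was 0.37 and passed without WT replicate 3 (adjusted p = 0.0721).

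**Figure D5:**
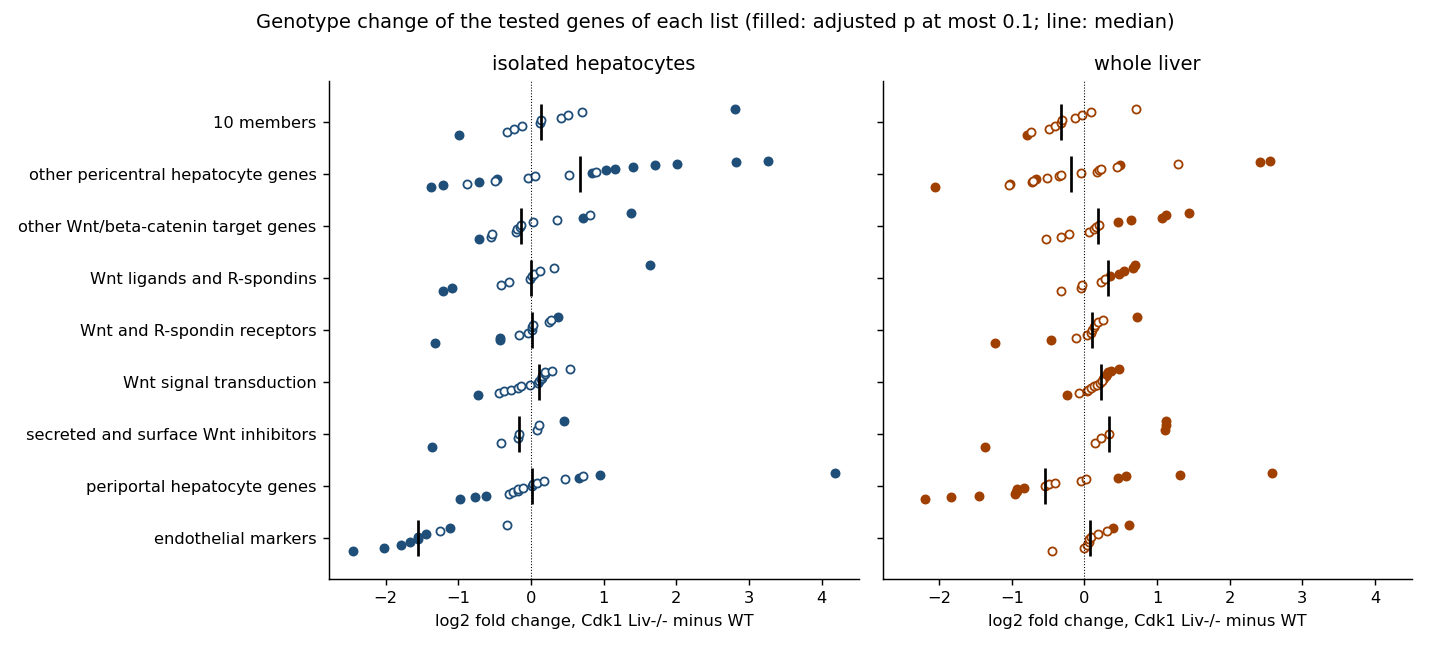
Log2 change from WT to *Cdk1* Liv-/- of each tested gene of 9 lists, in isolated hepatocytes and in whole liver, with filled points where the adjusted p is 0.1 or less. The endothelial markers lie below 0 in hepatocytes, and the 10 genes lie on both sides of 0 in both compartments.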

How the data were processed

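The authors aligned single-end 75 bp reads with STAR, quantified genes with RSEM on mm10 and deposited FPKM, with no normalization between libraries. Read counts were not used here. The 10 genes and the lists of other genes were chosen with earlier results of these data known. In R 4.3.3, limma 3.58.1 (eBayes with trend) was fitted to log2(FPKM + 0.5) of the 17386 genes with a mean of at least 0.1 FPKM, within each compartment, within each genotype, and over all 12 libraries for the interaction. Tests were two-sided, with Benjamini-Hochberg adjustment over all genes tested and a threshold of 0.1. Alternatives were other pseudocounts and filters, median-ratio size factors, an equal sum in every library, the replicate number as a block, each library left out, all 4 groups in 1 fit, a two-sample test with q-values, and a log2 change of at least 1 in size. Named are the 10 genes, *Cdk1*, sex-linked genes, and of each list the genes that passed (at most the 4 with the largest change in each compartment), the 2 most abundant, and *Wnt2*, *Wnt9b*, *Rspo3*, *Lgr4* and *Axin1*. Not each gene this rule takes is reported. Coordinates are from GENCODE M21.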

Additional observations from a re-analysis of the deposited data

Results flagged for a closer look

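The change of *Oat* from WT to *Cdk1* Liv-/- differed between the compartments by 2.09 on the log2 scale (limma adjusted p = 0.0656 for the interaction over 12 libraries), with 2.80 in hepatocytes and 0.72 in whole liver. The change of *Slc1a2* differed by 1.49 (adjusted p = 0.0784), with 0.71 in hepatocytes and -0.79 in whole liver. Both differences were singled out because the interaction passed the threshold. Both calls are lost when single libraries or the filter on low values are left out, as described above. Markers of endothelial, stellate and Kupffer cells had lower calls in the same test, and their part in both differences was not tested.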

How the results depend on the processing

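Of the 10 genes, the number called in hepatocytes was 2. It was 1 with no filter on low values, with the replicate block and with a log2 change of at least 1 in size, and 1 to 3 with each library left out in turn. In whole liver it was 1, and 0 under those settings, with 0 to 2 without single libraries. For the interaction it was 2, and 0 with no filter, 2 with the replicate block and 0 to 2 without single libraries. Between the compartments it was 0 in WT under all alternatives, which at this spread does not show that levels are equal. In *Cdk1* Liv-/- mice it was 3, and 0 with no filter, 1 with a log2 change of at least 1, 2 with the replicate block, 4 in a single fit of all groups and with the two-sample test, and 0 to 3 without single libraries. Without the filter more genes are tested, and without a library fewer samples are. The cause of the other differences was not tested.

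Over all alternatives and comparisons, single values of the 10 genes and *Cdk1* kept direction and side of the threshold in 823 cases, lost the threshold in 48 and gained it in 9. In 44 cases the sign was the opposite and neither value passed, and in 0 it was the opposite with a call. Among genes of the other lists these were 336 and 3 cases. With size factors, between the *Cdk1* Liv-/- compartments, *Ctnnb1* was 0.19 (adjusted p = 0.0768) and *Dvl1* 0.25 (0.0761). *Notum* in the latter comparison was -0.66 without *Cdk1* Liv-/- whole liver replicate 2 (0.0132), and up to 0.38 without other libraries. Replicate numbers are not stated to be pairs, and across genes their deviations had Pearson correlations of -0.317 to 0.239 between groups. The 3 libraries of a group, values rounded to 2 decimals and 34.65 to 49.85 reads per FPKM on 1 kb limit what can be seen of genes near 1 FPKM.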

Other observations

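Markers of other cells of the liver were read from the same tests, in which 12.1% of all tested genes were higher and 6.61% lower in hepatocytes. In whole liver 7.53% of all tested genes were lower. Stellate cell and fibroblast markers were higher in *Cdk1* Liv-/- whole liver for 5 of 8 genes (median 0.74, or 0.52 with size factors), where 38.0% of all tested genes were higher, with *Col1a1*, a fibrillar collagen, up by 1.80 (limma adjusted p = 0.00783). Of 8 Kupffer cell and macrophage markers 3 passed as higher there (median 0.22), near the 38.0% of all tested genes and their median of 0.18. With size factors 2 passed (median 0.0086, beside 0.013 for all genes). *Cd5l*, 1 of the 3, was up by 0.92 (limma adjusted p = 0.0168). In hepatocytes 1 gene of each of these lists was lower (medians -0.78 and -1.17). Without WT replicate 2 these counts were 4 and 8, and without any other hepatocyte library they were 0. With size factors the Kupffer cell markers *Csf1r*, *Timd4* and *C1qa* also passed as lower in hepatocytes (limma adjusted p = 0.0962, 0.0969 and 0.0970). Of 4 tested cholangiocyte markers, from a list that leaves out 1 gene planned for it, 3 were higher in each compartment (medians 0.59 and 1.14), or 1 in whole liver with size factors, and *Spp1*, osteopontin, rose by 2.20 in hepatocytes (0.0132) and 1.96 in whole liver (0.00615). The whole liver count of cholangiocyte markers was 1 without WT replicate 1 or 3 or *Cdk1* Liv-/- replicate 1 or 3, while the hepatocyte count was 2 without any 1 library. Of 8 erythroid markers, 2 were lower in hepatocytes and 3 in whole liver (medians -1.47 and 0.083, the latter -0.14 with size factors), and *Klf1*, an erythroid transcription factor, fell by 1.35 (0.020) and 1.38 (0.00527). The hepatocyte count of erythroid markers was 1 without any library but *Cdk1* Liv-/- replicate 2.

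Of 9 tested pan-hepatocyte genes, 1 was higher and 2 lower in hepatocytes (median 0.034), and 4 were lower in whole liver (median -0.35, or -0.57 with size factors). Of all tested genes 12.1% were higher and 6.61% lower in hepatocytes, beside 38.0% and 7.53% in whole liver. *Apoa1*, an apolipoprotein, fell by 1.12 in hepatocytes (limma adjusted p = 0.0293) and by 0.55 in whole liver (0.0205). Both calls were lost with the replicate number as a block (0.127 and 0.108) and without the filter on low values (0.170 and 0.417). The higher call, *Hnf4a*, was lost with size factors (limma adjusted p = 0.154) and without any hepatocyte library but *Cdk1* Liv-/- replicate 2. The lower count in hepatocytes was 1 without WT replicate 1 or 2. In whole liver the lower count was 2 without any WT replicate.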
